A study of Mus musculus with 12 samples.

Results

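Cytosolic nucleic acid sensing was described in mouse FO B cells through 8 genes: Ddx58 (RIG-I), Ifih1 (MDA5), Dhx58 (LGP2), Mavs, Eif2ak2 (PKR), Adar, Zbp1 and Tmem173 (STING). They were taken by name from what is known of the pathway, with earlier results of these data known. The shares of all genes set beside their counts are therefore a description, not a test of an independently chosen list. All 8 were found among the 22561 genes of the count table. Tmem173 is listed there as Sting1 and was matched through its Ensembl identifier. FO B cells, the follicular subset of mature B cells, were sorted from the spleens of 10-week-old C57BL/6 mice with no further genetic change stated. The 4 groups of 3 samples each were unstimulated cells, cells given IFNα (a type I interferon) at 0.1 μg/mL, cells given CpG (an oligodeoxynucleotide that activates TLR9) at 1 μg/mL, and cells given both, each stimulus for 12 h. The sources used here do not state whether the unstimulated cells were cultured for that time, so that culture and stimulus cannot be told apart in any comparison with them. They also do not state whether samples of a group came from separate mice, and p-values then measure only the spread between these samples. Nor do they state whether samples with the same replicate number in different groups came from the same mouse.

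RIG-I, MDA5 and LGP2 are RNA helicases of the cytosol. RIG-I and MDA5 bind viral or mislocated double-stranded RNA and engage the mitochondrial adaptor MAVS, through which the kinase TBK1 and the transcription factors IRF3 and IRF7 switch on type I interferon, whereas LGP2, which lacks the signalling domain, tunes them. PKR halts translation when it binds double-stranded RNA, ADAR edits adenosine to inosine in such RNA and so marks it as self, and ZBP1 binds Z-form nucleic acid and can engage RIPK3 to start cell death. STING is the adaptor on the endoplasmic reticulum that answers the cyclic dinucleotide made by the DNA sensor cGAS. Many of these genes are themselves targets of type I interferon, and TLR9, the receptor for CpG, senses DNA in endosomes by a separate route.

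RNA was measured by BRB sequencing, a pooled method that reads the 3′ ends of transcripts and tags every captured molecule with a unique molecular identifier (UMI). A count is therefore a captured 3′ end, and longer transcripts do not gain counts by their length. Samples held between 922450 and 2923865 UMI counts, and replicates differed by more than counting noise in every group (chi-square over its degrees of freedom between 1.897 and 6.306). Levels are given as normalized CPM, which are UMI counts scaled to library size (CPM) and adjusted by the TMM factors of edgeR. The summed level of 9 B cell markers, among them Cd79a and Ms4a1, was between 31560 and 34150 CPM in unstimulated cells and between 25300 and 29910 CPM with IFNα, but between 6733 and 7166 CPM with CpG and between 6058 and 6106 CPM with CpG + IFNα. All 9 markers had counts in every group. T and NK cell markers, of which 5 were in the table, summed to at most 3.64 CPM in any sample, with Cd3g and Cd8a at 0 counts throughout. Myeloid and dendritic cell markers (9 in the table) summed to at most 33.2 CPM in unstimulated cells, 17.6 CPM with IFNα and 5.99 CPM with CpG, with or without IFNα. Lyz2, Cd14 and S100a8 were at 0 counts in all 3 stimulated groups, and Siglech was at 0 counts in every group. Adgre1 of the same list went the other way with IFNα, from 1.67 ± 1.34 (SD, n = 3) CPM in unstimulated cells to 9.25 ± 3.30 CPM. It was at 1.11 ± 0.77 CPM with CpG and at 0 counts with CpG + IFNα. Marginal zone B cell markers (6 genes, mostly Cr2 and Dtx1) summed to between 577 and 698 CPM in unstimulated cells and between 176 and 213 CPM with IFNα. They summed to between 72.5 and 94.9 CPM with CpG and between 37.1 and 58.6 CPM with CpG + IFNα. Cr2 encodes CD21, for which the FO B cells themselves were sorted at a middle level. Erythroid and platelet markers (5 genes, mostly Hbb-bs) varied within every group, from 36.2 to 262 CPM in unstimulated cells, 9.16 to 271 CPM with IFNα, 3.50 to 44.8 CPM with CpG and 1.03 to 49.6 CPM with both, with Pf4 at 0 counts throughout. Plasma cell markers (5 genes, mostly Irf4 and Xbp1, which B cells also express) summed to between 255 and 380 CPM in unstimulated cells and between 181 and 271 CPM in the stimulated groups. Sdc1 alone was at 18.9 ± 5.58 (SD, n = 3) CPM in unstimulated cells and 27.1 ± 5.64 CPM with IFNα. With CpG it was at 1.79 ± 0.49 CPM, and with CpG + IFNα at 1.12 ± 0.48 CPM. These marker levels moved with the stimuli, and their part in the results was not tested. In bulk RNA, fewer cells of a type and less RNA per cell cannot be told apart. Of the type I interferon genes, Ifna4 and Ifnk were in the table. Ifnk had no count in any sample, and Ifna4 had counts with IFNα alone, at no more than 0.608 CPM.

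Of the 8 genes, 6 rose with IFNα (Ddx58, Ifih1, Dhx58, Eif2ak2, Adar and Zbp1), whether or not CpG was present. CpG alone lowered 4 of the 8 (Ddx58, Dhx58, Zbp1 and Tmem173). A gene was called higher or lower when edgeR's quasi-likelihood test over 9431 genes gave a Benjamini-Hochberg adjusted p under 0.1 and its log2 fold change over 1 in size. With IFNα against unstimulated cells, 6 genes were called higher, beside 4.56% of all genes tested, and 0 were called lower, beside 4.07%. None was lower at an unadjusted p under 0.05 or by DESeq2. With CpG against unstimulated cells, 4 genes were called lower, beside 25.5% of all genes, and 0 were called higher, beside 20.1%. None was higher at an unadjusted p under 0.05 or by DESeq2. With CpG + IFNα against unstimulated cells, 4 genes were called higher (20.3% of all genes) and 1 was called lower (25.6% of all genes). Adding IFNα to CpG, that is CpG + IFNα against CpG, gave 6 genes called higher, where 2.95% of all genes were, and 1 called lower, where 2.01% were. Over the 8 genes, the median of the log2 fold changes was 2.85 for IFNα and 3.38 for IFNα added to CpG, while the median of all genes tested was within 0.1 of 0 in both. The comparisons with unstimulated cells share the same 3 control samples.

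The 8 genes lie at separate loci on GRCm38: Ddx58 on chromosome 4 (40203773 to 40239828, minus strand), Ifih1, Mavs and Zbp1 on chromosome 2 (62595798 to 62646255 minus, 131234063 to 131248025 plus, 173206612 to 173218923 minus), Dhx58 on chromosome 11 (100694884 to 100704271, minus), Eif2ak2 on chromosome 17 (78852564 to 78882573, minus), Adar on chromosome 3 (89715022 to 89753446, plus) and Tmem173 on chromosome 18 (35733679 to 35740554, minus). Eif2ak2 and Dhx58 also overlap short noncoding or antisense genes on the opposite strand. Those of them in the table, n-R5s29 and Dhx58os, had 0 and 3 counts over all samples.

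**Figure D1:**
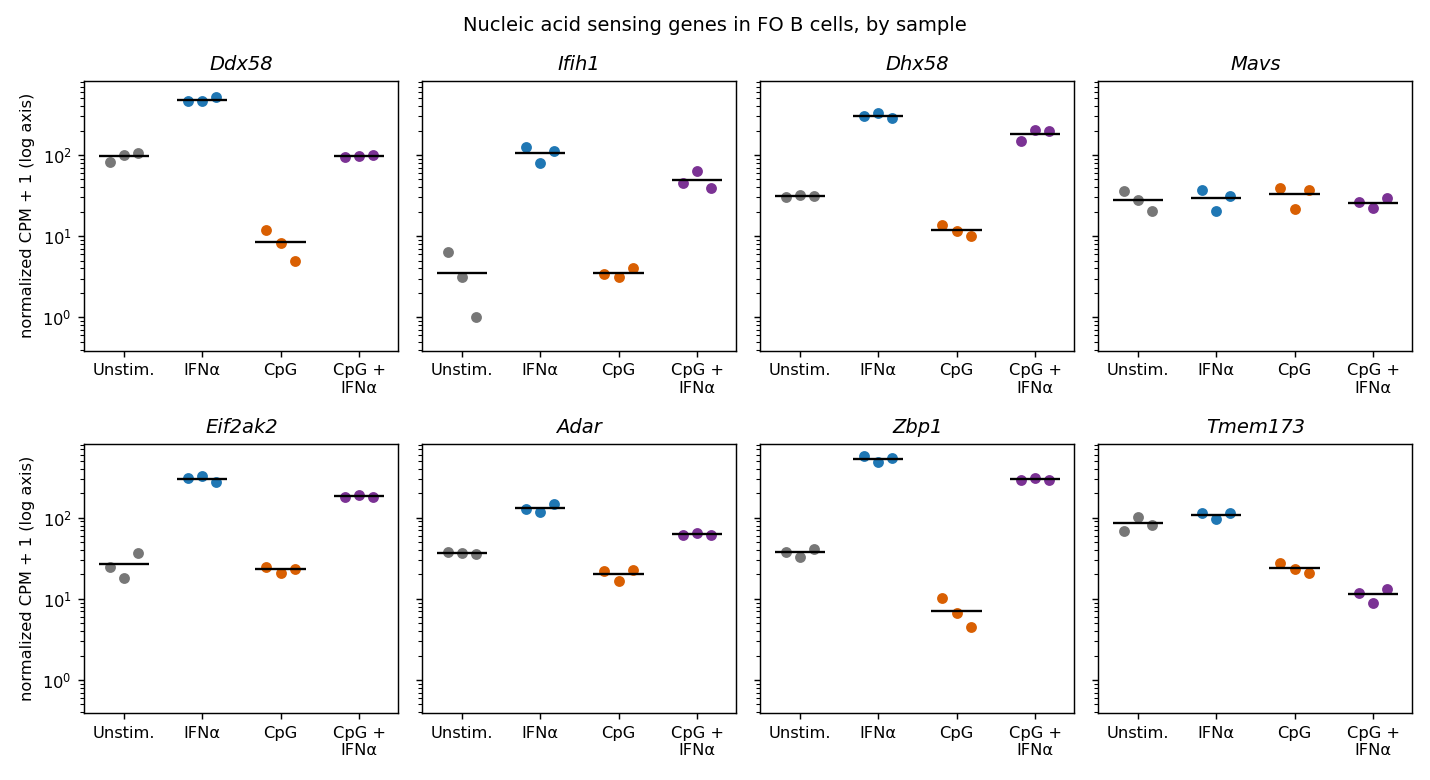
Levels of the 8 genes by sample. Each point is 1 sample, the horizontal axis gives the 4 groups, the vertical axis is normalized CPM + 1 on a log axis, and the line is the mean of 3 samples. The points with IFNα stand highest for all genes but Mavs, whose groups overlap, and Tmem173, whose points with IFNα overlap those of unstimulated cells and whose lowest points are those with CpG + IFNα.

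Ddx58 encodes RIG-I, which recognizes short RNA with a 5′ triphosphate. Its level was 81.0, 99.5 and 106 CPM in the unstimulated samples, 468, 466 and 514 CPM with IFNα, 11.1, 7.13 and 3.99 CPM with CpG, and 93.3, 96.6 and 99.2 CPM with CpG + IFNα. The samples with CpG were the lowest and those with IFNα the highest, whereas unstimulated cells and cells given both stimuli overlapped. IFNα raised Ddx58 5.06-fold over unstimulated cells (log2 fold change 2.34, SE 0.13, adjusted p = 6.36e-16). CpG lowered it 13.2-fold (log2 fold change -3.72, SE 0.22, adjusted p = 4.42e-16). The difference between CpG + IFNα and unstimulated cells was 0.01 on the log2 scale, with a 95% interval from -0.27 to 0.30 (adjusted p = 0.930).

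Ifih1 encodes MDA5, which recognizes long double-stranded RNA. It was close to the limit of detection without IFNα: the unstimulated samples held 6, 2 and 0 UMI counts and the samples with CpG 4, 3 and 6. The sample with 0 counts allows a level of up to 2.65 CPM, counting error only. With IFNα its level was 123, 77.8 and 110 CPM, and with CpG + IFNα it was 44.2, 62.4 and 38.5 CPM. All samples given IFNα, with or without CpG, were above all samples without it, and cells given both stimuli were below cells given IFNα alone. The log2 fold change with IFNα was 5.29 (95% interval 4.54 to 6.04, adjusted p = 1.31e-13), and that of CpG + IFNα over CpG was 4.22 (3.51 to 4.92, adjusted p = 1.26e-11). The value with IFNα was 6.61 without unstimulated replicate 1, which held 6 counts, and 4.64 without unstimulated replicate 3, which held 0, and it was called in both. Between CpG and unstimulated cells the log2 difference was 0.03, with an interval from -1.49 to 1.54, which reaches past a 2-fold change in both directions at these counts.

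Dhx58 encodes LGP2, the regulator of the other helicases. Its level was 29.1, 31.0 and 30 CPM in unstimulated cells, 306, 329 and 285 CPM with IFNα, 12.9, 10.7 and 8.99 CPM with CpG, and 146, 202 and 196 CPM with both. No 2 groups overlapped. IFNα raised it 10.2-fold (log2 fold change 3.35, SE 0.16, adjusted p = 4.51e-18) and CpG lowered it 2.78-fold (log2 fold change -1.48, SE 0.25, adjusted p = 4.00e-06). Cells given both stimuli had 6.06 times the level of unstimulated cells (adjusted p = 1.07e-15). The 3 RNA helicases together summed to 128 ± 10.9 CPM (SD, n = 3) in unstimulated cells, 893 ± 18.2 CPM with IFNα, 20.8 ± 5.26 CPM with CpG and 326 ± 39.0 CPM with CpG + IFNα.

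Mavs, the adaptor that carries the signal of RIG-I and MDA5, did not pass the test in any comparison. Its level was 34.6, 26.7 and 19.4 CPM in unstimulated cells, 36.3, 19.5 and 30.5 CPM with IFNα, 38.1, 20.7 and 36.4 CPM with CpG, and 25.1, 21.4 and 28.3 CPM with CpG + IFNα. All 4 groups overlapped. The log2 difference with IFNα was 0.05 (95% interval -0.49 to 0.59, adjusted p = 0.933) and that with CpG was 0.26 (-0.24 to 0.77, adjusted p = 0.342). The interval for CpG + IFNα against CpG ran from -0.84 to 0.06 (log2 difference -0.39, adjusted p = 0.294). Each of these intervals lies within a 2-fold change in both directions. These values rest on 22 to 73 counts per sample. Over the alternatives described under processing, the lowest adjusted p was 0.0688 with CpG and 0.0917 for CpG + IFNα against CpG. The log2 differences there ran from 0.04 to 0.52 and from -0.66 to -0.26, under the fold threshold.

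Eif2ak2 encodes PKR. Its level was 23.7, 17.1 and 36.2 CPM in unstimulated cells, 309, 326 and 272 CPM with IFNα, 23.9, 19.96 and 22.5 CPM with CpG, and 178, 190 and 179 CPM with both. Samples with and without IFNα were far apart, while those with CpG lay within the range of the unstimulated ones. IFNα raised Eif2ak2 11.6-fold (log2 fold change 3.53, SE 0.16, adjusted p = 2.87e-18), and CpG + IFNα gave 8.20 times the level with CpG (log2 fold change 3.04, SE 0.16, adjusted p = 6.35e-17). The log2 difference between CpG and unstimulated cells was -0.23 (95% interval -0.69 to 0.23, adjusted p = 0.360).

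Adar, the RNA editing enzyme, changed over a smaller range. It was measured at 36.4, 35.3 and 34.4 CPM in unstimulated cells, 128, 116 and 145 CPM with IFNα, 20.9, 15.7 and 22.0 CPM with CpG, and 60.6, 63.8 and 60.6 CPM with both. The order was the same as for Dhx58 and no 2 groups overlapped. IFNα raised it 3.65-fold (log2 fold change 1.87, SE 0.16, adjusted p = 1.81e-11). With CpG it had a log2 fold change of -0.84 (SE 0.20, adjusted p = 4.44e-04), and with CpG + IFNα one of 0.80 against unstimulated cells (SE 0.16, adjusted p = 5.80e-05), so that both passed the adjusted p but not the fold. Counts near the 3′ end do not tell apart the interferon-inducible and constitutive forms of ADAR. Adar overlaps Chrnb2 on the opposite strand, which had 55 counts over all samples, and it is not stated whether the counting used strand.

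Zbp1 had the largest fold between its highest and lowest group means among the 8 genes, at 87.4. Its level was 36.4, 32.1 and 40.6 CPM in unstimulated cells, 577, 482 and 550 CPM with IFNα, 9.21, 5.70 and 3.50 CPM with CpG, and 294, 305 and 296 CPM with CpG + IFNα. No 2 groups overlapped. IFNα raised it 14.6-fold (log2 fold change 3.87, SE 0.15, adjusted p = 2.63e-20) and CpG lowered it 6.05-fold (log2 fold change -2.60, SE 0.27, adjusted p = 2.67e-10). Adding IFNα to CpG raised Zbp1 49.3-fold (log2 fold change 5.62, SE 0.19, adjusted p = 2.02e-21), which ranked 16 from the top of the 9431 genes tested. The samples with CpG alone held 15, 8 and 7 counts, so that this fold rests on a small denominator.

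Tmem173, the gene of STING, stood apart from the other genes. Its level was 68.3, 103 and 81.2 CPM in unstimulated cells, 113, 95.5 and 114 CPM with IFNα, 26.4, 22.1 and 19.97 CPM with CpG, and 10.9, 7.94 and 12.3 CPM with CpG + IFNα. Unstimulated cells and cells with IFNα overlapped, cells with CpG were lower than both, and cells with both stimuli were the lowest. The log2 difference with IFNα was 0.35 (95% interval 0.04 to 0.67, adjusted p = 0.113), which did not pass the adjusted p. Over the alternatives it ran from 0.23 to 0.52, with adjusted p from 0.0317 to 0.419. CpG lowered Tmem173 3.67-fold (log2 fold change -1.88, SE 0.19, adjusted p = 1.24e-10), and CpG + IFNα lowered it 8.21-fold against unstimulated cells (log2 fold change -3.04, SE 0.20, adjusted p = 7.13e-15). CpG + IFNα was also lower than CpG, by 2.24-fold (log2 fold change -1.16, SE 0.24, adjusted p = 6.26e-04). That last call was lost without replicate 2 of CpG + IFNα, the lowest sample, where the log2 fold change was -0.96 (adjusted p = 0.0168) and under the fold threshold.

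**Figure D2:**
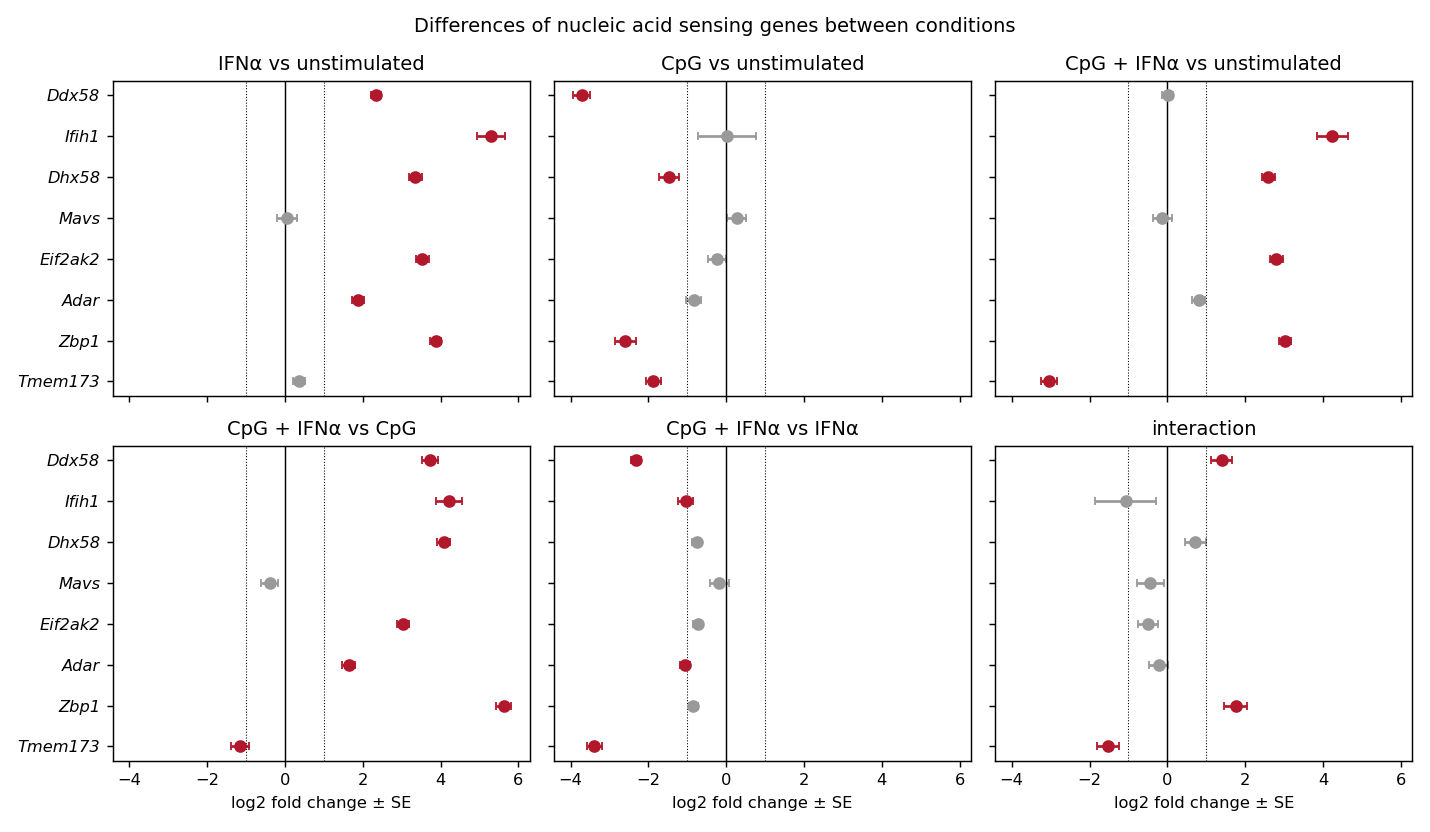
Log2 fold changes of the 8 genes in 6 comparisons. Points are estimates from edgeR and bars are standard errors, red marks genes called higher or lower, and dotted lines stand at a log2 fold change of 1 in size. Mavs is grey in all panels, and Tmem173 lies to the left wherever cells with CpG are compared with cells without it.

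CpG + IFNα was then compared with IFNα alone, which asks what CpG changed in cells that received the interferon. None of the 8 genes was called higher, beside 18.7% of all genes, and none was higher at an unadjusted p under 0.05 or by DESeq2. In all, 4 were called lower, beside 25.5% of all genes, and 7 were lower by the adjusted p alone, beside 39.8%. Tmem173 had the largest difference (10.5-fold lower, log2 fold change -3.39, SE 0.19), followed by Ddx58 (5.01-fold lower, log2 fold change -2.32, SE 0.12). Adar and Ifih1 were near the fold threshold, at log2 fold changes of -1.06 and -1.05. Zbp1, Dhx58 and Eif2ak2 had log2 fold changes of -0.84, -0.75 and -0.73 and passed the adjusted p only. Mavs was at -0.17 and did not pass. Without replicate 3 of IFNα, 2 genes were called lower in place of 4, because Adar and Ifih1 fell under the fold threshold, at -0.95 and -0.97. Ifih1 also fell under it without replicate 3 of the unstimulated samples (-0.997), replicate 1 of IFNα (-0.896) or replicate 1 or 3 of CpG + IFNα (-0.965 and -0.893). Scaling by library size alone also took Ifih1 under it (-0.994), which left 3 genes called lower, and without a filter on low counts both Ifih1 (-0.931) and Adar (-0.948) were under it.

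The interaction asks whether the effect of IFNα differed with and without CpG, as the log2 fold change of CpG + IFNα over CpG minus that of IFNα over unstimulated cells. Of the 8 genes, 2 were called higher (3.09% of all genes) and 1 was called lower (3.17% of all genes). The effect of IFNα was larger with CpG for Zbp1, by 1.75 on the log2 scale (SE 0.30, adjusted p = 1.11e-04). It was also larger for Ddx58, by 1.39 (SE 0.27, adjusted p = 7.85e-04). In both genes the level with CpG alone was below that of unstimulated cells, and the level with CpG + IFNα was below that with IFNα alone. For Tmem173 the interaction was -1.52 (SE 0.28, adjusted p = 4.02e-04), with a difference for IFNα of 0.35 without CpG and -1.16 with it. Dhx58 had an interaction of 0.72 (SE 0.27, adjusted p = 0.0979), which passed the adjusted p but not the fold. No difference was shown for Eif2ak2 (-0.49, 95% interval -1.01 to 0.02), Adar (-0.23, -0.72 to 0.26), Mavs (-0.44, -1.14 to 0.26) or Ifih1 (-1.08, -2.66 to 0.51). Of these, Ifih1 had the widest interval and at most 6 counts in each sample without IFNα. Its interaction was -2.40 without unstimulated replicate 1 and -0.39 without unstimulated replicate 3, and passed in neither (adjusted p = 0.158 and 0.852).

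**Figure D3:**
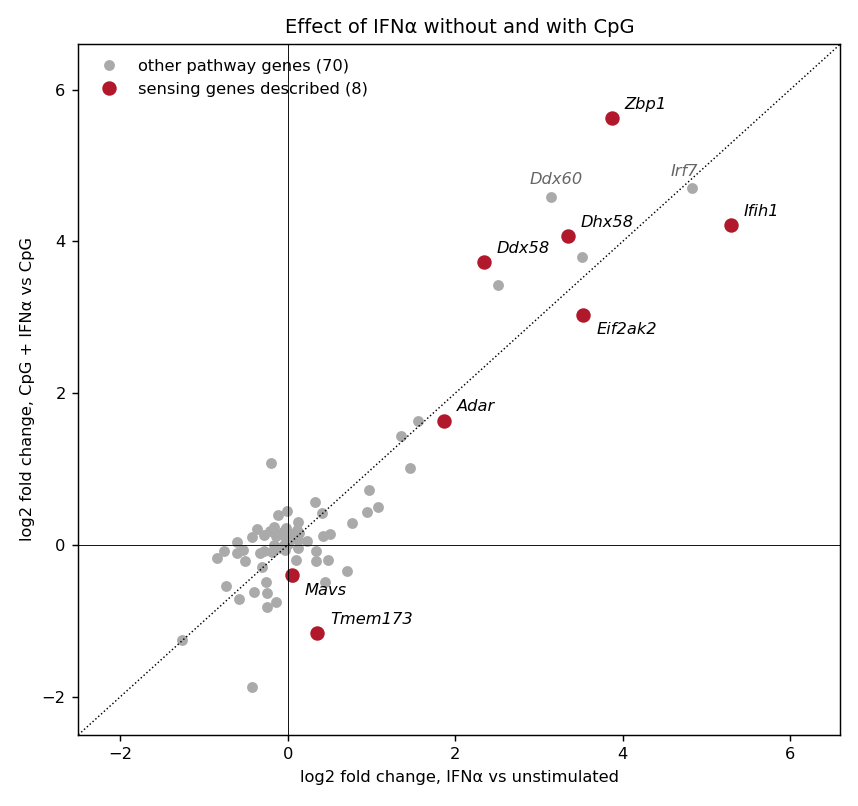
Effect of IFNα without CpG (horizontal axis, log2 fold change of IFNα over unstimulated) and with CpG (vertical axis, log2 fold change of CpG + IFNα over CpG). Red points are the 8 genes, grey points are 70 other genes of the pathway, and the dotted line marks equal effects. Zbp1 (3.87 and 5.62) and Ddx58 (2.34 and 3.73) lie above the line, and Tmem173 (0.35 and -1.16) lies below it. The axes share no sample. Ddx60, the named grey point above the line, had at most 2 counts per sample with CpG, so that its place on the vertical axis is imprecise.

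RefSeq promoter windows of GRCm38.p6 ran from 250 bases before to 50 bases after the start of transcription. They were searched in 5 of the 8 genes: Ddx58, Ifih1, Mavs, Eif2ak2 and Adar, the last with 3 starts. The other genes, named under processing, were not searched, and the counts given here do not cover them. A search for 2 motifs was made on both strands. GAAANNGAA is the core of the interferon-stimulated response element (ISRE), known from promoters of genes induced by type I interferon, and TTCNNNGAA is the gamma-activated site (GAS), known from promoters of genes induced by type II interferon. ISRE core letters were in 4 of the 5 genes and in 9.76% of the 27025 genes with a window. GAS letters were in 2 of the 5 and in 9.55%. The stretches around each ISRE core match are shown because these 4 genes rose with IFNα. They are written 5′ to 3′ along the gene, with the matched letters in capitals. In Ddx58 and in the upstream match of Ifih1 the motif is on the other strand, so that its reverse complement stands in capitals. Positions count from the start of transcription, negative before it.
Ddx58, positions 4 to 12, chr4:40239804-40239832, minus strand: ctgaggcagtTTCGATTTCctatggccag
Ifih1, positions -112 to -104, chr2:62646339-62646387, minus strand: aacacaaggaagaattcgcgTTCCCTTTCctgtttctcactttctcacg
Ifih1, positions 33 to 41, chr2:62646206-62646233, minus strand: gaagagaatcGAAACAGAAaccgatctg
Eif2ak2, positions 19 to 33, chr17:78882533-78882561, minus strand: ccgccggGAAAACGAAACAGAAgagaacc
Adar start 3, positions -249 to -241, chr3:89730468-89730497, plus strand: gGAAAAGGAActtcctcacagggcggagag
Adar start 3, positions 34 to 42, chr3:89730741-89730767, plus strand: tcaaggaaacGAAAGTGAActctgggg
In Eif2ak2 the capitals hold 2 matches that overlap by 3 bases. In Adar the matches were at the most downstream of the 3 starts, and the other two windows held neither motif. The window of Mavs, the one of these 5 genes that did not pass any test, held neither motif. A match of letters is a description and not a measured binding site.

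**Figure D4:**
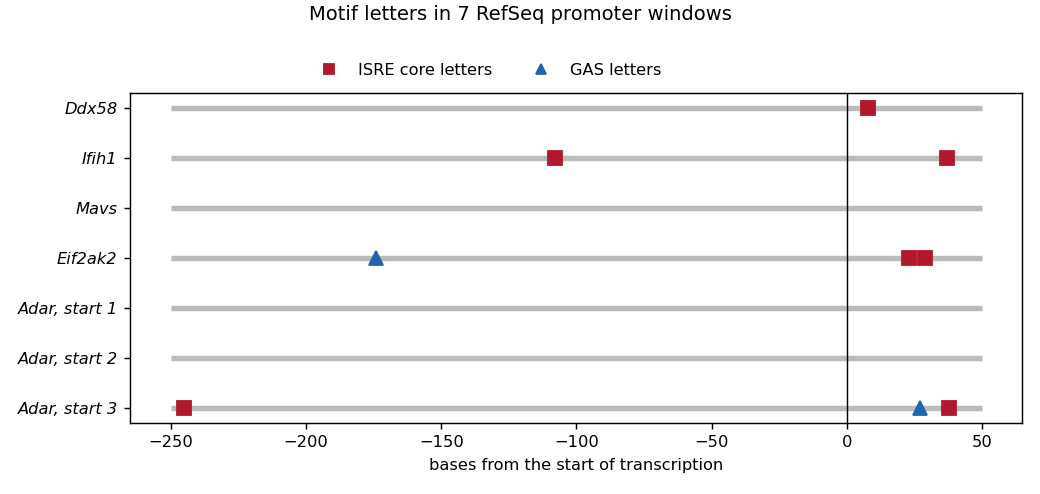
Matches to the ISRE core (squares) and GAS (triangles) letters in the 7 promoter windows of 5 genes, by distance from the start of transcription in bases (horizontal axis). ISRE core letters lie within 50 bases after the start in Ddx58, Ifih1, Eif2ak2 and start 3 of Adar, and none lie in the windows of Mavs or of starts 1 and 2 of Adar.

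Other genes of the pathway were taken from 6 lists, of which 78 genes were in the table and 70 passed the filter on low counts. The lists too were chosen with earlier results of these data known. With IFNα, 8 of the 70 (11.4%) were called higher and 1 (1.43%) lower, beside 4.56% and 4.07% of all genes. With IFNα added to CpG, 7 (10%) were called higher and 2 (2.86%) lower, beside 2.95% and 2.01% of all genes. Their median log2 fold changes were -0.03 and 0.04. Other sensors and helicases (14 tested) had 2 called higher with IFNα. Mb21d1, which encodes the DNA sensor cGAS upstream of STING, rose from 4.11 ± 0.41 (SD, n = 3) to 24.0 ± 3.90 CPM (log2 fold change 2.51, adjusted p = 3.18e-06). It was at 1.11 ± 0.77 CPM with CpG and at 13.5 ± 3.05 CPM with both. The order of its group means was thus that of Ddx58, Ifih1 and Dhx58 and not that of Tmem173, its partner in the pathway. Mb21d1 held 4 to 5 counts in each unstimulated sample and 1 to 4 with CpG. Its fall with CpG was called (log2 fold change -1.72, adjusted p = 0.0162). With only the groups compared, Mb21d1 did not pass the filter on low counts. Ddx60, a helicase linked to RIG-I, rose from 11.3 ± 2.56 to 101 ± 7.79 CPM with IFNα (log2 fold change 3.14, adjusted p = 2.49e-13) and was at 0.846 and 20.3 CPM with CpG and CpG + IFNα. The RNA helicases Ddx21 and Ddx1 did not follow IFNα. They were higher with CpG, at log2 fold changes of 2.09 (adjusted p = 8.39e-17) and 2.18 (adjusted p = 3.97e-15), and with CpG + IFNα against IFNα, at 2.32 and 2.15. Ddx3x, another helicase, was at 312 ± 31.95 CPM in unstimulated cells, 173 ± 12.3 CPM with IFNα, 506 ± 29.4 CPM with CpG and 450 ± 12.3 CPM with both.

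Among regulators of the RIG-I-like receptors (12 tested), Trim25, a ubiquitin ligase that promotes RIG-I signalling, was higher with IFNα (log2 fold change 1.35, adjusted p = 2.26e-10) and lower with CpG (log2 fold change -1.07, adjusted p = 1.36e-07), and IFNα added to CpG raised it by 1.44 (adjusted p = 3.18e-10). Its value with CpG was under the fold threshold without replicate 1 of the unstimulated samples (-0.98) or of CpG (-0.99). Rnf135 (Riplet), another ligase of RIG-I, was lower with CpG (log2 fold change -1.21, adjusted p = 0.0197) and did not pass with IFNα (0.51, adjusted p = 0.397). Without unstimulated replicate 2 the value with CpG was -0.86 and did not pass (adjusted p = 0.159). Ywhae, which encodes the chaperone 14-3-3ε that brings RIG-I to membranes, was higher with CpG (log2 fold change 1.18, adjusted p = 3.90e-10). Tkfc, an inhibitor of MDA5, was the one regulator called lower when IFNα was added to CpG (4.56 ± 0.323 against 1.099 ± 0.593 CPM, SD, n = 3, adjusted p = 0.0271). It held between 1 and 5 counts in each sample with both stimuli, and the call was lost without replicate 1 of CpG + IFNα (log2 fold change -1.61 in place of -1.87, adjusted p = 0.102).

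Downstream of MAVS and STING (13 tested), Irf7 was the one gene called in either direction with IFNα. It rose from 61.4 ± 13.0 (SD, n = 3) to 1762 ± 190 CPM (log2 fold change 4.83, adjusted p = 2.15e-22), fell to 12.1 ± 3.48 CPM with CpG (log2 fold change -2.35, adjusted p = 7.28e-11) and was at 315 ± 37.1 CPM with both. Irf3, its constitutive relative, was at 104 ± 10.5, 97.0 ± 9.82, 98.7 ± 6.95 and 96.1 ± 3.02 CPM in unstimulated, IFNα, CpG and CpG + IFNα samples and passed no test, as did Mavs. Tbk1 passed the adjusted p but not the fold with IFNα (log2 fold change 0.41, adjusted p = 0.0549) and with IFNα added to CpG (0.43, adjusted p = 0.0451).

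Regulators of STING (9 tested) included Trim56, a ubiquitin ligase, and Stim1, a calcium sensor that holds STING in the endoplasmic reticulum. Trim56 rose with IFNα (log2 fold change 1.46, adjusted p = 1.53e-10) and with IFNα added to CpG (1.01, adjusted p = 3.71e-06), the last just over the fold threshold and under it with the replicate block (0.995), without replicate 1 of CpG (0.90) or without replicate 2 of CpG + IFNα (0.88). It fell with CpG (-1.20, adjusted p = 4.72e-08) and was lower with CpG + IFNα than with IFNα alone (-1.64, adjusted p = 2.24e-13). Stim1 fell with CpG (log2 fold change -2.00, adjusted p = 4.14e-12) and with CpG + IFNα (-2.82, adjusted p = 2.06e-15), as Tmem173 did. Of the 11 nucleases and decay factors tested, 5 were called lower and 1 higher with CpG, where 25.5% and 20.1% of all genes were, and 5 were called lower and 2 higher with CpG + IFNα against unstimulated cells, where 25.6% and 20.3% were. Samhd1, which degrades deoxynucleotides, was at 529 ± 44.0 (SD, n = 3) CPM in unstimulated cells, 1549 ± 46.8 CPM with IFNα, 41.9 ± 3.22 CPM with CpG and 131 ± 10.8 CPM with both. Its log2 fold change was 1.55 with IFNα and -3.65 with CpG (adjusted p = 8.78e-14 and 1.84e-21). The endolysosomal nucleases also fell with CpG: Pld4 by 2.77 on the log2 scale, Pld3 by 2.46 and Dnase2a by 2.09. Pld4 was in addition lower with IFNα (log2 fold change -1.26, adjusted p = 1.85e-06).

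Among partners of ZBP1 and PKR (11 tested), Mlkl, which encodes the pore-forming effector of necroptosis, was at 7.62 ± 3.02 (SD, n = 3) CPM with IFNα and 11.8 ± 3.13 CPM with both, against at most 2 counts in each sample without IFNα. Ripk3, the kinase that ZBP1 engages, did not rise with IFNα as Zbp1 did. It was at 34.7 ± 5.27 CPM in unstimulated cells, 23.7 ± 5.46 CPM with IFNα, 14.3 ± 2.07 CPM with CpG and 8.96 ± 2.45 CPM with both. Ripk3 was called lower with CpG (log2 fold change -1.28, adjusted p = 3.17e-05) and with CpG + IFNα (-1.99, adjusted p = 3.18e-08). Ripk1 passed no fold threshold, between -0.001 and 0.57 on the log2 scale over the 5 comparisons of groups. Eif2s1, which encodes eIF2α, the substrate of PKR, was higher with CpG (log2 fold change 2.46, adjusted p = 2.57e-17) and with CpG + IFNα (2.66, adjusted p = 1.86e-18).

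The genes whose levels were most like each of the 8 were sought among all genes tested by Pearson's r of log2 CPM over the 12 samples, which fall into 4 groups, so that r mostly describes the pattern of group means. Ddx58 was most like Helz2 (r = 0.994) and Epsti1 (0.989), Dhx58 was most like Trim30d (0.995) and Rsad2 (0.994), and Zbp1 was most like Rtp4 (0.993) and Dhx58 (0.992). Eif2ak2 was most like Oasl1 (0.992) and Phf11b (0.991), Adar was most like Irf7 (0.993) and Ifit3 (0.991), and Ifih1 was most like Mpeg1 (0.964) and Ogfr (0.958). Tmem173 was most like Cd52 and Pafah1b3, each with r = 0.994. Mavs was most like Calm3 (0.897) and Ap3s1 (0.865). Between the 8 genes, r was from 0.694 to 0.992 among the 6 that rose with IFNα, between -0.013 and 0.533 for Tmem173 with them, and between -0.193 and 0.025 for Mavs with them.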

How the data were processed

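The authors deposited raw UMI counts per gene for the 12 samples. According to the submitters' processing notes and the methods of the study, they used UMI-tools 1.1.2, Trim Galore 0.6.7, HISAT2 2.2.1 on GRCm38 and featureCounts 2.0.1. The annotation release and the use of strand are not given in the sources used here. All 22561 identifiers were in GENCODE M21, from which positions were taken. For the promoter search no entry was found for Dhx58 and Zbp1, and Tmem173 was left out. The motif counts therefore lack Tmem173, which was not called higher with IFNα. Columns named naiive were read as the unstimulated group.

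Low counts were removed with filterByExpr (grouped) and TMM factors were taken in edgeR 4.0.16 (R 4.3.3), and 4 group means were fitted to all 12 samples with glmQLFit and glmQLFTest, leaving 8 residual degrees of freedom. The replicate number of the labels was not taken as a pairing, since the sources do not say whether it marks mice shared between groups. Calls needed a Benjamini-Hochberg adjusted p under 0.1 over 9431 genes and a log2 fold change over 1. Tests were checked on simulated data. The 8 genes and the pathway lists were chosen with earlier results of these data known. Named pathway genes were, per comparison, up to 4 called in each direction with the smallest p, plus set protein partners (Trex1 not used here). Alternatives were RLE factors, library size alone, DESeq2 1.42.0, no filter, only the groups compared, a replicate block, counts drawn down to 922450, each sample left out, and other fold thresholds. Some items of the marker lists are not reported here.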

Additional observations from a re-analysis of the deposited data

Results flagged for a closer look

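The effect of IFNα differed with and without CpG, by the interaction test of edgeR, for 4 of the 8 genes and 6 of the 70 pathway genes by the adjusted p alone, which 13.4% of all genes passed. Of the 6, Ddx3x and Dnase2a are among the named genes. The difference on the log2 scale (effect with CpG minus effect without) was 1.39 for Ddx58, 1.75 for Zbp1 and -1.52 for Tmem173. These 3 were called and stayed so under each alternative but a log2 fold change over 2, between 1.03 and 1.82, 1.41 and 2.18, and -1.68 and -1.32. For Dhx58 it was 0.72 with an adjusted p of 0.0979, and the alternatives gave differences from 0.25 to 0.86 with adjusted p from 0.0362 to 0.723. It was 0.68 for Ddx3x (adjusted p = 0.00400), whose log2 fold change with IFNα was -0.84 without CpG (adjusted p = 8.70e-07) and -0.17 with CpG (adjusted p = 0.342). It was -1.05 for Dnase2a (adjusted p = 0.0318), at 0.71 for IFNα without CpG and -0.34 with it. Dnase2a lost its call by library size, without a filter on low counts, and without unstimulated replicate 2 or 3, IFNα replicate 2, CpG replicate 1 or 2, or CpG + IFNα replicate 1 or 3. In these settings its difference stayed between -0.99 and -0.87, just under the fold threshold. Only without CpG replicate 1 did it also not pass the adjusted p (0.110). The counts behind these values were low in the groups with CpG alone, where Zbp1 held 15, 8 and 7 UMI counts and Ddx58 held 18, 10 and 8.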

How the results depend on the processing

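Over the alternatives, 872 log2 fold changes of the 8 genes kept direction and side of the threshold, 20 changed sign, 10 lost the call and 1 gained it (Adar with CpG, -1.21 with counts drawn down). None that changed sign had been called. Sign changes by setting were Ifih1 with CpG at -0.005 (RLE) and -0.008 (DESeq2), Ddx58 with CpG + IFNα against unstimulated at -0.001 (RLE and DESeq2), -0.017 (library size) and -0.003 (only the groups compared), Mavs with IFNα at -0.035 (library size) and -0.016 (drawn down), and the Adar interaction at 0.154 (drawn down). With single samples left out, log2 fold changes that changed sign ranged from -0.076 to 0.122 for Ddx58 with CpG + IFNα, from -0.612 to 1.363 for Ifih1 with CpG, from -0.410 to 0.087 for Eif2ak2 with CpG, and, for Mavs, from -0.184 to 0.307 with IFNα, from -0.306 to 0.128 with CpG + IFNα and from -0.418 to 0.023 for CpG + IFNα against IFNα.

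With a log2 fold change over 2, genes called higher were 5 with IFNα (1.71% of all genes) and 5 for CpG + IFNα against CpG (1.59%), without Adar in both (1.87 and 1.64). Genes called lower were 2 with CpG (12.1% of all genes), 0 for CpG + IFNα against CpG (0.159%) and 2 against IFNα (12.3%), and the interaction had 0 higher (1.02%) and 0 lower (0.626%). By the adjusted p alone, 7 were lower for CpG + IFNα against IFNα, 3 were by library size and 2 without a filter. Leaving out a sample gave 2 to 4 there and 0 to 1 for CpG + IFNα against CpG. Pathway genes called lower in the interaction (Dnase2a alone as reported) were 0 by library size or without a filter, 2 drawn down, and 0 to 2 with a sample left out (higher: 0 to 1). Pathway genes called lower for CpG + IFNα against CpG (Pld4 and Tkfc as reported) were 1 with only the groups compared, where Tkfc did not pass the filter on low counts, and 1 to 2 with a sample left out. Drawn down, Enpp1 took the place of Tkfc, which again did not pass the filter. For the other changes the cause was not tested.

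With the replicate block, 6 of the 8 genes were called higher with IFNα and 4 lower with CpG, and no call of the 8 genes changed. For same-numbered samples r ran from -0.0651 to 0.205 over 18 pairs, 5 over 0.1, and 10 of 12 samples correlated best with their own number. Between stimulated groups every such r was positive (0.0087 to 0.205). With unstimulated samples it ran from -0.0651 to 0.0469. What same-numbered samples share was not tested. Depth limits Ifih1 without IFNα, and Zbp1 and Ddx58 with CpG.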
